A study of Mus musculus with 25 samples.

Results

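Genes of the motile cilium and of the ependymal lining were followed through 5 ages of the mouse brain. The group holds 36 of the 47729 genes counted, named by symbol for their part in cilia or as ependymal markers. They were named with earlier results of these data known. The mice were males of the inbred strain C57BL/6, aged 2, 9, 15, 24 or 30 months, and RNA of a brain hemisphere was sequenced in 5 libraries per age, 25 in all. No treatment, transgene or disease model enters the labels. They do not say how much of the ventricle wall or of the choroid plexus each dissected hemisphere kept, nor that each library is 1 animal, so p-values measure the spread between these libraries.

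Ependymal cells form the sheet that lines the brain ventricles, and each carries a tuft of motile cilia that beat together and move cerebrospinal fluid along the wall. A motile cilium is built on a ring of doublet microtubules around a central pair. Dynein arms on the doublets pull neighbouring doublets past each other, radial spokes reach from the doublets to the central pair and pass signals that shape the beat, and tektins, inner proteins and rulers hold the doublets in register. The forkhead factor Foxj1 switches this gene programme on, together with RFX factors that bind X-box sites in ciliary promoters. The choroid plexus, which secretes the fluid, carries Foxj1 and cilia as well. In bulk RNA, fewer ciliated cells and less RNA per cell cannot be told apart, and this holds for every result here.

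The promoters of all 7 members that passed the test at 24 against 2 months are shown, with that of Spag6l, the close relative of Spag6 that did not pass. Each sequence is the 250 bases before the RefSeq transcription start (GRCm38.p6), written 5′ to 3′ on the gene's own strand, and capitals mark GTTGCC, a core motif of the X-box, or its reverse complement. A capital stretch of 8 letters is GTTGCCAT, a longer form of the same core, on the other strand, and in Tmem212 the capitals are the forkhead core TGTTTA.
Spag6, chr2:18698772-18699021, plus strand: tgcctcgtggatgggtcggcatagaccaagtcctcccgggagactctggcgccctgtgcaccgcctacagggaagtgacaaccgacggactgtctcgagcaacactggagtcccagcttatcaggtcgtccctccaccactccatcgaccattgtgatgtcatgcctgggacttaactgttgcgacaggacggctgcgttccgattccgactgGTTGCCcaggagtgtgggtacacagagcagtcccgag
Spag6l, chr16:16829364-16829613, minus strand: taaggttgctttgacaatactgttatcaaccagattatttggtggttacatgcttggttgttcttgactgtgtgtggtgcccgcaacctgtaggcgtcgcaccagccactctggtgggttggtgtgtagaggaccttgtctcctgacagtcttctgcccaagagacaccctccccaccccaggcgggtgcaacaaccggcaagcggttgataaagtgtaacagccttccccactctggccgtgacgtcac
Cfap46, chr7:139683816-139684065, minus strand: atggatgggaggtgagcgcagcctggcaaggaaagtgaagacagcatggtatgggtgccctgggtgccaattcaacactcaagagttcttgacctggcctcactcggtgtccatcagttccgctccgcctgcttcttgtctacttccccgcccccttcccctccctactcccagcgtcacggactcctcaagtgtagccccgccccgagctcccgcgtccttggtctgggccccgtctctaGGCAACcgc
Cfap44, chr16:44394549-44394798, plus strand: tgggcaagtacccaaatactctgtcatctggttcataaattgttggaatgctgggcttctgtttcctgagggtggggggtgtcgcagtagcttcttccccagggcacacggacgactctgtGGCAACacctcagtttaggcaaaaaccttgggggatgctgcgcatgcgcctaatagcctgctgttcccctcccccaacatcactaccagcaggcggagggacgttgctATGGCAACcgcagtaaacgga
Ccdc153, chr9:44240427-44240676, plus strand: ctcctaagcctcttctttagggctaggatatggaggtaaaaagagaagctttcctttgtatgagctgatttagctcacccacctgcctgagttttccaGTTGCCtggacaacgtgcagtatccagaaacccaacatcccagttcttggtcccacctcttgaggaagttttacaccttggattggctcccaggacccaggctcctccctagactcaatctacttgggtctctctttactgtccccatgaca
Spag16, chr1:69826720-69826969, plus strand: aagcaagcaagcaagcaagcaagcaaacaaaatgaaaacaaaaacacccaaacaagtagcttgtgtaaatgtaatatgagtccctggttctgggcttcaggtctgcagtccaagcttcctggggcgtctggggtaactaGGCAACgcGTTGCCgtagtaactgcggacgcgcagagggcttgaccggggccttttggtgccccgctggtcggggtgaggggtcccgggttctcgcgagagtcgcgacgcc
Dnali1, chr4:125065658-125065907, minus strand: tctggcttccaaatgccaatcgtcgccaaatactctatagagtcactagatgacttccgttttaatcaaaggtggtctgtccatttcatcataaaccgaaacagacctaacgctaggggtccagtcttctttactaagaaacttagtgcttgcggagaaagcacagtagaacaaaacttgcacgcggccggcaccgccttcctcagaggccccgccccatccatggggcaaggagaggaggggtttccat
Tmem212, chr3:27896369-27896618, minus strand: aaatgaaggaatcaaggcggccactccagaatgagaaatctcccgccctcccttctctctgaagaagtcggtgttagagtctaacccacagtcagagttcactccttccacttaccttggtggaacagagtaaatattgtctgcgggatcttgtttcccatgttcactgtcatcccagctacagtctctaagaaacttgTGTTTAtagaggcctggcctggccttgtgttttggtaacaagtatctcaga
The windows of Spag6, Cfap46 and Ccdc153 held 1 such core each and those of Cfap44 and Spag16 held 2. Those of Dnali1 and Tmem212, which passed the test, and of Spag6l, which did not, held no such letters. The RefSeq start of Spag6 lies 4990 bases inside the start of the gene in GENCODE. For other members the 2 starts lay 81926 bases apart in Cfap43, 16975 in Tekt4, 1720 in Dnah12 and 560 in Tekt1. Where several starts were listed, the one nearest to GENCODE was used for members and the first listed for all promoters. Promoters of 30 members were listed in the RefSeq table. On either strand GTTGCC occurred in 10 of the 30, or 33.3%, against 10.5% of 27018 promoters of the same length. GTTGCCAT, which contains it, occurred in 3 members (Lrrc23, Tekt1 and Cfap44), or 10%, against 1.1% of all. The forkhead core TGTTTA occurred in 7, or 23.3%, against 12% of all, and the full palindromic X-box in 0.4% of all promoters and in no window of a member. Cfap43 and Dnah12 were among the members with TGTTTA. Such matches describe letters and are not binding sites.

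Library totals, in units of 1000000 counts, were 17.8 to 31.3. Markers of neurons, astrocytes and myelinating oligodendrocytes were abundant in all libraries: their lists summed to 8700 to 11360, 5528 to 6855 and 5307 to 7491 CPM (TMM-scaled counts per 1000000). Replicates 2 to 5 of 30 months differed from the other 21 libraries in base composition. Here the 10% of genes richest in GC were 1.11 to 2.03 above the 10% poorest in GC on the log2 scale, relative to the mean of the younger libraries, against -0.25 to 0.15 elsewhere. Comparisons among the younger ages were therefore fitted on their 20 libraries, and 30 month results are set beside their values without those 4. Replicate 1 of 9 months had little choroid plexus RNA. Its choroid list of 24 genes summed to 430.3 CPM, against 972 to 1532 CPM in the other 24 libraries, and its Ttr stood at 17.9 CPM against 369 to 843 CPM. None of the 6 defining choroid markers Ttr, Folr1, Kcne2, Clic6, Kl and Otx2 was at 0 in any library. Scaled by total counts instead of TMM, the numbers of all genes higher and lower were 960 and 1757 at 9 against 2 months (1498 and 1128 with TMM), 2173 and 1754 at 24 against 2 (1817 and 2193), 1108 and 810 at 15 against 9 (689 and 1212), 2541 and 1688 at 24 against 15 (1928 and 2305), and 1770 and 1149 for the trend (1382 and 1606).

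Levels per length of exon set the members in a wide order. In CPM per kilobase of exon, averaged over the 20 libraries of 2 to 24 months, Rsph9 (6.01), Ccdc39 (3.68), Foxj1 (3.19), Rsph1 (2.84) and Enkur (2.04) led. Rsph9 (5833 counts) overlaps Mrps18a (20503 counts) on the other strand, and Ccdc39 (14127 counts) overlaps Ttc14 (89558 counts). Whether counting used strand is not given in the sources used here, so the levels of Rsph9 and Ccdc39 are uncertain to that extent. At the low end stood Hydin at 0.276, Dnah12 at 0.24, Dnah11 at 0.212, Spag16 at 0.162 and Spag17 at 0.107. Mia, a secreted protein used as an ependymal marker, came last at 0.0903. It had 57 counts in the 25 libraries together, 0 to 5 in each, where 3 counts amount to 0.0961 to 0.168 CPM. It was the member that failed the filter on low counts, so 35 members were tested. Mia overlaps Gm21983, a protein-coding gene on the same strand that had 0 counts. How reads shared by both genes were counted is not given in the sources used here, so the level of Mia is uncertain to that extent. The other members had from 485 counts (Tekt4) to 14127 counts (Ccdc39) over the 25 libraries.

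At 24 against 2 months, 30 of the 35 tested members had a log2 fold change above 0, most of them small. Spag6, an armadillo repeat protein of the central pair, was 2.36-fold higher (log2 1.24). Cfap46, Dnali1, Ccdc153, Cfap44, Spag16 and Tmem212 were higher by 1.16-fold to 1.58-fold. These 7 passed the test (adjusted p under 0.05, edgeR's quasi-likelihood test, two-sided, adjusted over 17799 genes), all of them higher. Among all genes tested, 10.2% were called higher and 12.3% lower in this comparison, so 7 of 35, or 20% of the members, stands against 10.2%. The median log2 fold change of the members was 0.181, against -0.003 over all genes, of which 8753 of 17799 were above 0. At an unadjusted p under 0.05 there were 12 members, again all higher. In 3 members, Spag6, Cfap46 and Tmem212, every library of 24 months lay above every library of 2 months, which held for 6.53% of all genes. The count depended on single libraries: 11 members passed without replicate 4 of 2 months, 2 without replicate 5 of 2 months, 4 (1 of them lower) without replicate 2 of 24 months and 2 without replicate 5 of 24 months. Spag6 and Cfap46 passed in all 20 of these fits, and in a fit that shared its spread with the 30 month libraries Spag6 was the member that passed, with 3.2% of all genes called higher.

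**Figure D1:**
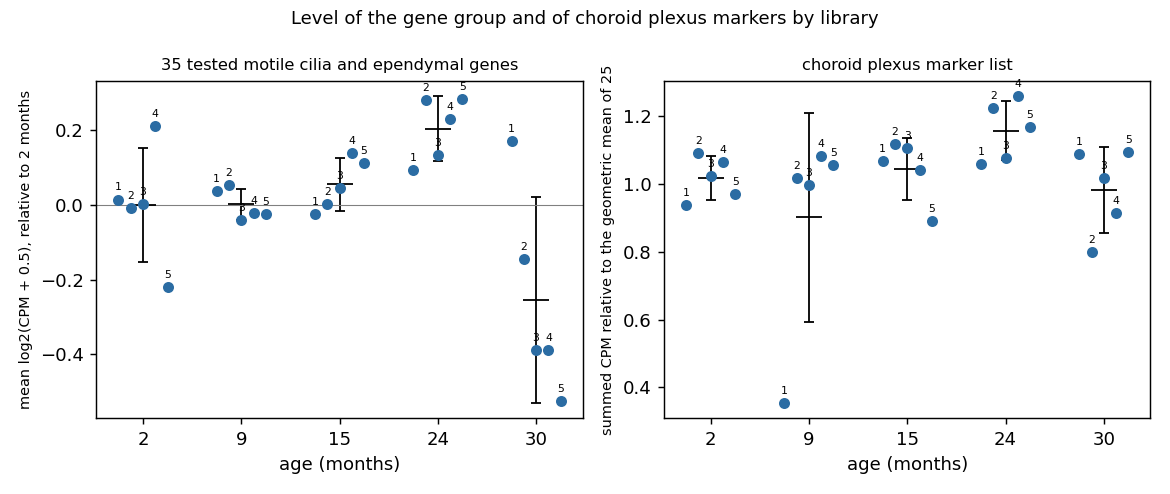
Left, mean log2(CPM + 0.5) of the 35 tested members in each library, relative to the mean of 2 months; right, summed CPM of the choroid plexus list relative to the geometric mean of the 25 libraries. Points are libraries with their replicate numbers, wide bars the mean and error bars the SD of 5 libraries per age. The 24 month libraries lie between 0.093 and 0.282 on the left, replicates 2 to 5 of 30 months between -0.525 and -0.145, and replicate 1 of 9 months is the low choroid point at 0.354.

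Averaged over the 35 members, the log2 level relative to 2 months was 0.001 ± 0.0417 at 9 months, 0.054 ± 0.0696 at 15, 0.204 ± 0.086 at 24 and -0.255 ± 0.275 at 30 months, where 2 months itself had an SD of 0.152 (n = 5 each). The spread at 2 months came from both ends. Replicate 5 (-0.219) was the lowest library of that age for 20 of the 35 members, and replicate 4 (0.211) was the highest for 22. At 24 months the libraries lay between 0.093 and 0.282, so they overlapped the highest library of 2 months. The choroid plexus list was also higher at 24 than at 2 months, with sums of 1290 to 1532 CPM against 1140 to 1328 CPM, and a median log2 fold change of 0.146 over its 24 genes, of which Car12 (0.25) passed. With the choroid level of each library as a covariate, 6 of the 35 members passed at 24 against 2 months, and Spag16 did not. In replicate 1 of 9 months, where choroid RNA was scarce, the mean level of the members was 0.037, inside the range of the other ages.

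**Figure D2:**
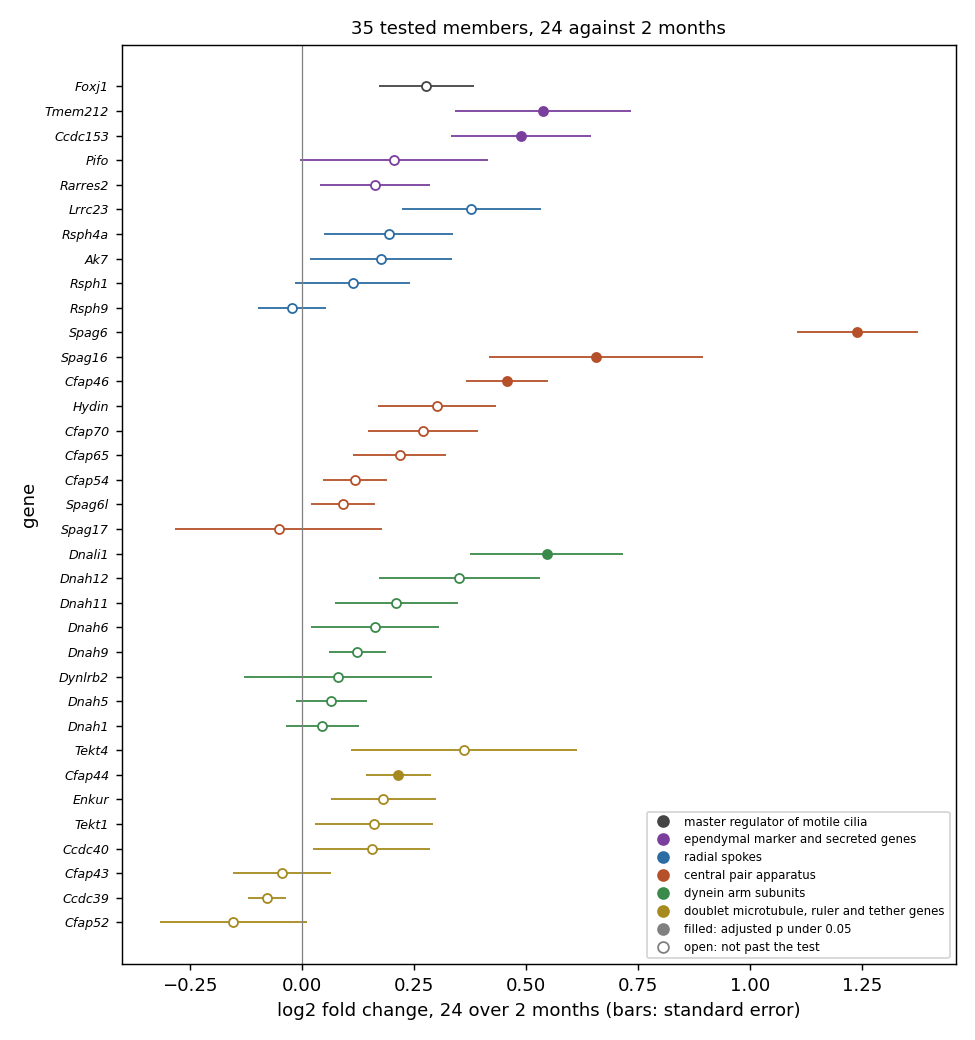
Log2 fold change of each tested member at 24 over 2 months, with its standard error, coloured by role; filled points passed the test. 30 of 35 points lie right of 0, and Spag6 stands apart at 1.24.

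Foxj1, the forkhead factor that drives the motile cilia programme (chr11:116330704-116335399, minus strand, GRCm38), showed no steady course through the younger ages. Foxj1 had 7.18, 7.5, 8.36, 10.2 and 6.8 CPM at 2 months and 9.72, 9.15, 7.89, 8.02 and 8.76 CPM at 9 months. It had 7.15, 6.57, 7.21, 7.21 and 7.31 CPM at 15 months and 8.27, 9.63, 7.75, 10.9 and 12 CPM at 24 months. Before GC correction the 15 month libraries were the lowest set: all 5 lay below every library of 24 months and of 9 months. After it they had 6.98 to 8.02 CPM and overlapped both ages, whose lowest libraries had 7.28 CPM at 24 months and 7.5 CPM at 9 months. Foxj1 was higher at 24 than at 15 months (log2 fold change 0.45, SE 0.107, adjusted p = 0.00332), a call that GC correction ended (0.31, adjusted p = 0.0602). At 24 against 2 months the difference was 0.28 (SE 0.106, adjusted p = 0.0617), and the libraries overlapped. At 15 against 9 months it was -0.30 (adjusted p = 0.0801), where 4.99% of all genes were lower without overlap. After GC correction that difference was -0.19 (adjusted p = 0.335).

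Among the ependymal markers and secreted genes, 2 of the 4 tested were higher at 24 than at 2 months, and the other two, Rarres2 (0.16) and Pifo (0.20), were not past the test. Ccdc153, a coiled-coil gene used as a marker of ependymal cells, had 2.49, 2.25, 2.53, 2.75 and 1.23 CPM at 2 months and 2.87, 2.19, 2.34, 2.55 and 2.06 CPM at 9 months. It had 2.31, 2.44, 2.12, 2.67 and 2.64 CPM at 15 months and 2.24, 2.87, 3.44, 3.9 and 3.45 CPM at 24 months. The highest values fell at 24 months, but replicate 1 of that age overlapped the 2 month libraries, whose replicate 5 was far below the others. The log2 fold change was 0.49 (SE 0.157, adjusted p = 0.0237). Leaving out replicate 5 of 2 months or replicate 3, 4 or 5 of 24 months ended the call. Tmem212, a membrane protein gene also used as an ependymal marker, had 1.48, 1.93, 1.69, 1.6 and 1.69 CPM at 24 months against 1.12, 1.02, 1.35, 1.46 and 0.767 CPM at 2 months. Those libraries did not overlap (0.54, SE 0.197, adjusted p = 0.0475). Between these ages Tmem212 had 1.89, 1.59, 1.4, 1.04 and 1.41 CPM at 9 months and 1.21, 1.22, 1.02, 2.08 and 1.98 CPM at 15 months, spanning both ends. The call of Tmem212 was lost in 10 of 20 fits that left out 1 library. Rarres2, the secreted chemoattractant chemerin, ranged from 2.64 to 4.46 CPM over the 20 younger libraries. Pifo, which acts when cilia are taken down, ranged from 0.561 to 1.60 CPM.

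In edgeR's test none of the 5 radial spoke genes passed at 24 against 2 months, and 1, Lrrc23, had an unadjusted p under 0.05. DESeq2 called 5 of the 35 members and limma-voom 6, none of them a spoke gene. Lrrc23, a protein of the spokes, had 3.55, 4.54, 4.65, 3.12 and 4.98 CPM at 24 months against 2.93, 3.16, 3.11, 4.27 and 2.71 CPM at 2 months (0.38, SE 0.155, adjusted p = 0.0801). It had 2.95, 3.48, 3.47, 3.44 and 3.09 CPM at 9 months and 2.09, 2.68, 3.02, 4.59 and 3.21 CPM at 15 months, and the libraries of all 4 ages overlapped. Rsph1, a spoke head protein, had 3.89, 4.28, 4.65, 4.46 and 4.98 CPM at 24 months against 3.03, 3.54, 4.07, 3.29 and 3.3 CPM at 15 months and was higher (0.36, SE 0.13, adjusted p = 0.0405). That call was lost after GC correction (adjusted p = 0.116) and kept in 12 of 20 fits without 1 library. Rsph1 had 3.42, 4.54, 3.68, 4.66 and 4.45 CPM at 2 months and 4.04, 4.9, 3.1, 2.97 and 2.67 CPM at 9 months. At 24 against 2 months it differed by 0.11 (SE 0.128, adjusted p = 0.57). Rsph9, another spoke head protein and the member with most RNA per length, had 7.79, 9.28, 8.76, 8.25 and 9.69 CPM at 9 months against 10.4, 9.29, 10.3, 10.4 and 11.1 CPM at 2 months and was lower (-0.24, SE 0.0773, adjusted p = 0.0337), a call lost with choroid level as a covariate. By 24 months it stood at 10.7, 9.59, 9.57, 11 and 9.96 CPM, within the range of 2 months (-0.02). Rsph4a, of the spoke head, and Ak7, an adenylate kinase of the cilium, differed by 0.19 and 0.18 at 24 against 2 months, with adjusted p of 0.359 and 0.462.

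Of the 9 central pair genes, 3 passed at 24 against 2 months: Spag6, Cfap46 and Spag16. Spag6 (chr2:18694032-18750413, plus strand) had 2.1, 2.25, 1.83, 1.91 and 1.99 CPM at 2 months, 3.02, 2.92, 3.78, 2.45 and 3.89 CPM at 9 months and 3.08, 4.05, 3.42, 4.38 and 3.73 CPM at 15 months. It had 5.55, 3.9, 5.51, 4.38 and 4.28 CPM at 24 months and 5.52, 4.11, 5.57, 5.41 and 5.63 CPM at 30 months. Every library of 9 months and later lay above every library of 2 months. The means were 2.02 ± 0.164 CPM at 2 months, 3.21 ± 0.607 at 9, 3.73 ± 0.51 at 15, 4.72 ± 0.757 at 24 and 5.25 ± 0.643 at 30 months (SD, n = 5 each). Such a lack of overlap, higher than 2 months, held for 5.81% of all genes at 9 months, 5.03% at 15, 6.53% at 24 and 10.8% at 30 months. Spag6 was higher at 9 than at 2 months (0.68, SE 0.142, adjusted p = 0.0014), at 15 than at 2 (0.90, adjusted p = 7.47e-05) and at 24 than at 2 (1.24, SE 0.135, adjusted p = 1.47e-07). The 24 month libraries were also higher than those of 15 months (0.34, SE 0.123, adjusted p = 0.0437), with overlap between 3.90 and 4.38 CPM, and GC correction ended that call (adjusted p = 0.0533). Against 2 months the calls at 9, 15 and 24 months held under all 8 other settings and without any 1 of the 20 libraries.

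Spag6l (chr16:16753016-16829456, minus strand), the closely related armadillo repeat gene, did not follow. Spag6l had 8.1, 7.2, 7.11, 7.63 and 7.21 CPM at 2 months, 7.39, 8.81, 8.27, 7.54 and 8.06 CPM at 9 months and 7.76, 7.36, 7.66, 7.75 and 7.78 CPM at 15 months. It had 7.34, 8.3, 7.23, 8.23 and 8.57 CPM at 24 months and 8.66, 7.37, 6.5, 5.96 and 4.95 CPM at 30 months. The younger ages overlapped throughout, with a log2 fold change of 0.09 at 24 against 2 months (SE 0.0706, adjusted p = 0.378). Per kilobase of exon Spag6l had 1.7 CPM and Spag6 had 1.01 CPM, as means over 2 to 24 months. The longest coding transcripts of the 2 genes, of 2458 (Spag6) and 2416 bases (Spag6l), aligned over 1883 bases with 84.5% identity. Of 2409 stretches of 50 bases in Spag6, 18 (0.75%) occurred in Spag6l too.

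**Figure D3:**
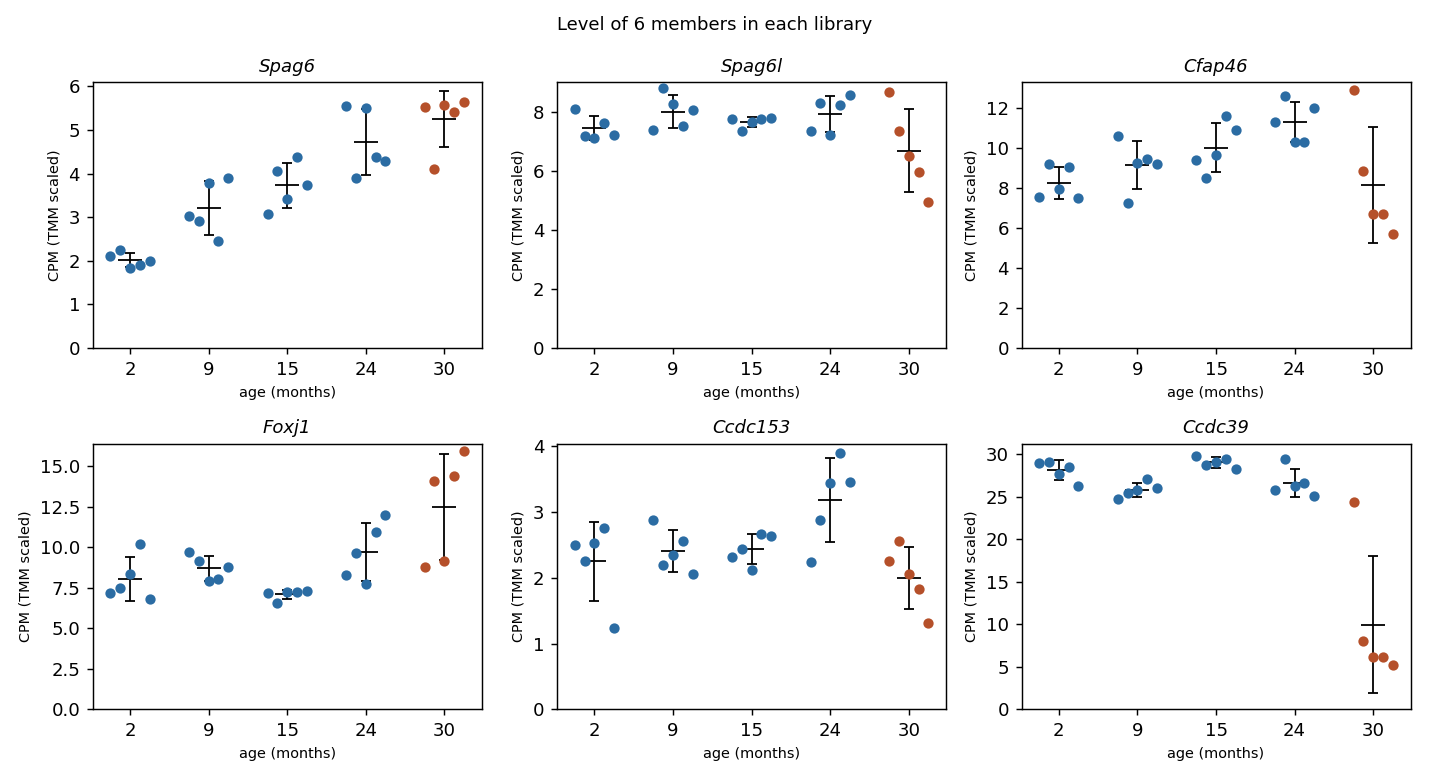
CPM of 6 members in each library by age, with the mean and SD of 5 libraries per age; the y axes differ. Spag6 lies between 1.83 and 2.25 CPM at 2 months and between 4.11 and 5.63 CPM at 30 months, Spag6l stays between 7.11 and 8.81 CPM from 2 to 24 months, and in Ccdc39 replicate 1 of 30 months (24.3 CPM) stands above the other 4 of that age.

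Cfap46 (chr7:139600951-139683817, minus strand), a protein of a projection on the central pair, was the other member whose call survived each left-out library. It had 7.57, 9.19, 7.94, 9.04 and 7.52 CPM at 2 months and 10.6, 7.26, 9.25, 9.43 and 9.18 CPM at 9 months. It had 9.41, 8.5, 9.66, 11.6 and 10.9 CPM at 15 months and 11.3, 12.6, 10.3, 10.3 and 12 CPM at 24 months. All 24 month libraries lay above all 2 month libraries (0.46, SE 0.091, adjusted p = 0.000513), and 15 months was higher than 2 months as well (0.28, SE 0.0938, adjusted p = 0.0437), a call kept in 11 of 20 fits without 1 library. In the fit with all 25 libraries the call at 24 months was lost (adjusted p = 0.0812). Spag16, the relative of the PF20 protein of green algae, had 0.827, 1.28, 1.38, 2.08 and 1.56 CPM at 24 months against 1.07, 0.868, 0.865, 1.24 and 0.46 CPM at 2 months. It had 0.619, 1.25, 0.869, 0.896 and 1.41 CPM at 9 months and 1.05, 0.944, 1.02, 1.38 and 0.849 CPM at 15 months. Its libraries overlapped, and its call (0.66, SE 0.239, adjusted p = 0.0455) was lost in 12 of 20 fits without 1 library. With 613 counts in 25 libraries, Spag16 was among the members of lowest depth.

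The other central pair genes that were read in full did not pass at 24 against 2 months. Hydin, whose loss causes hydrocephalus in mice, had 5.03, 6.25, 4.44, 5.37 and 6.54 CPM at 24 months against 4.35, 4.7, 4.36, 5.73 and 3.38 CPM at 2 months (0.30, SE 0.132, adjusted p = 0.103). It had 5.09, 5.37, 4.27, 4.15 and 3.89 CPM at 9 months and 4.62, 4.29, 5.17, 5.92 and 6.56 CPM at 15 months, with overlap at each age. Cfap65 had 11.7, 14.9, 10.7, 11.1 and 11.1 CPM at 24 months against 10.6, 12.1, 9.07, 11.8 and 7.57 CPM at 2 months (0.22, SE 0.104, adjusted p = 0.14). It had 9.57, 10.9, 11, 9.38 and 9.69 CPM at 9 months and 9.9, 9.88, 10.3, 11.9 and 10.3 CPM at 15 months. Cfap65, a central pair protein, was within the 2 month range in all but 1 library of 24 months. Cfap70 had 2.93, 2.14, 2.05, 2.36 and 1.94 CPM at 2 months and 2.29, 2.02, 1.7, 2.03 and 2.01 CPM at 9 months. It had 2.04, 2.09, 2.28, 1.88 and 2.5 CPM at 15 months and 2.72, 3, 2.72, 2.64 and 2.66 CPM at 24 months. All 24 month libraries of Cfap70, a tetratricopeptide repeat protein of the axoneme, lay above all 15 month libraries (0.35, SE 0.122, adjusted p = 0.0363), while against 2 months they overlapped (0.27, SE 0.122, adjusted p = 0.113). The call against 15 months was lost with no filter, in DESeq2 and in the fit of all 25 libraries. It was kept in 14 of 20 fits without 1 library. Cfap54, of the same projection as Cfap46, had 9.42, 11.5, 12.7, 13 and 10.9 CPM at 2 months and 11, 9.93, 11.6, 9.86 and 12 CPM at 9 months. It had 12, 12.4, 12.4, 13.5 and 13.3 CPM at 15 months and 12.3, 13.1, 11.8, 12.4 and 13.2 CPM at 24 months. Cfap54 was higher at 15 than at 9 months (0.22, SE 0.0719, adjusted p = 0.0426; 0.126 after GC correction), with overlap of single libraries. Spag17, relative of the algal PF6 protein, differed by -0.05 (SE 0.231) at 24 against 2 months.

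Of the 8 dynein arm genes, Dnali1 passed at 24 against 2 months, and all 8 had log2 fold changes above 0. Dnali1, a light chain of the inner arms, had 1.81, 1.68, 1.92, 2.08 and 0.972 CPM at 2 months and 1.71, 2.06, 1.62, 1.98 and 1.45 CPM at 9 months. It had 1.87, 2.44, 2.57, 2.04 and 2.26 CPM at 15 months and 1.76, 2.87, 2.03, 2.56 and 3.25 CPM at 24 months. The log2 fold change was 0.55 (SE 0.171, adjusted p = 0.0206), with overlap of the ages. It was lost without replicate 5 of 2 months, replicate 2 of 24 months or replicate 5 of 24 months. The outer arm heavy chain Dnah5, a gene of human primary ciliary dyskinesia, was higher at the middle ages. Dnah5 had 12.5, 14.6, 10.7, 11.7 and 11.1 CPM at 9 months and 12.9, 12.7, 11.7, 11.3 and 11.8 CPM at 15 months, against 9.47, 9.65, 10.2, 11.3 and 9.92 CPM at 2 months. The libraries of 15 and 2 months met near 11.3 CPM without overlapping, and the calls were 0.26 at 9 months (SE 0.0789, adjusted p = 0.0219) and 0.26 at 15 months (SE 0.0794, adjusted p = 0.032; 0.0589 after GC correction). At 24 months Dnah5 had 10.2, 11.4, 9.02, 10.5 and 11.8 CPM and the difference was 0.07 (adjusted p = 0.6).

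Dnah9, another outer arm heavy chain, had 10.5, 11.9, 12.3, 12 and 10.6 CPM at 15 months, against 9.39, 10, 10.3, 9.81 and 10 CPM at 9 months and 9.91, 10.6, 9.16, 11 and 9.82 CPM at 2 months. It was higher at 15 than at 9 months without overlap, like 3.37% of all genes (0.22, SE 0.0636, adjusted p = 0.0255) and than at 2 months with overlap (0.20, SE 0.0645, adjusted p = 0.0429). The call against 9 months was lost with choroid level as a covariate, and the call against 2 months under total counts scaling, with no filter, in DESeq2 and in 6 of 20 fits without 1 library. At 24 months it had 11.5, 11.6, 10.3, 10.6 and 10.8 CPM, within the range of 2 and 15 months together. Dnah12, an inner arm heavy chain, had 2.93, 3.77, 2.72, 3.34 and 3.88 CPM at 24 months against 2.88, 2.55, 2.27, 3.71 and 1.74 CPM at 2 months (0.35, SE 0.18, adjusted p = 0.168). Dnah12 had 3.24, 3.35, 1.93, 2.26 and 2.25 CPM at 9 months and 2.2, 2.64, 2.77, 3.84 and 3.49 CPM at 15 months, and each age overlapped the next. Dnah1, an inner arm heavy chain, had 18.6, 22, 17, 20.9 and 19 CPM at 24 months against 13.1, 14.2, 17.2, 19.4 and 18.4 CPM at 15 months (0.24, SE 0.0823, adjusted p = 0.0401). That difference was 0.18 after GC correction (adjusted p = 0.138), and the call was kept in 14 of 20 fits without 1 library. Dnah1 had 18.6, 18.3, 19.5, 20.4 and 17.2 CPM at 2 months and 17, 16.9, 17.4, 16 and 16.5 CPM at 9 months. At 24 against 2 months it differed by 0.04 (SE 0.0816, adjusted p = 0.741). Dnah6, Dnah11 and the light chain gene Dynlrb2 differed by 0.16, 0.21 and 0.08 at 24 against 2 months and did not pass.

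In the doublet group of tektins, inner proteins, rulers and tethers, Cfap44 passed of 8 at 24 against 2 months. Cfap44, which with Cfap43 ties an inner dynein to the doublet, had 8.54, 10.4, 9.13, 9.49 and 8.8 CPM at 2 months and 9.53, 8.25, 9.48, 9.19 and 9.46 CPM at 9 months. It had 10.2, 9.29, 9.7, 10.3 and 9.81 CPM at 15 months and 10.9, 12.2, 9.02, 10.2 and 11.4 CPM at 24 months. The difference was small (0.21, SE 0.0727, adjusted p = 0.0317), the libraries overlapped, and the call was lost in 6 of 20 fits without 1 library. Its partner Cfap43 had 3.89, 4.92, 4.68, 4.29 and 4.38 CPM at 24 months against 4.25, 5.51, 4.58, 5.22 and 3.32 CPM at 2 months and differed by -0.05 (SE 0.109). Cfap43 had 3.38, 4.13, 3.78, 3.73 and 4.22 CPM at 9 months and 3.85, 3.86, 4.44, 4.67 and 4.48 CPM at 15 months. Tekt4, a tektin inside the doublet, had its lowest single libraries at 9 and 15 months. Tekt4 had 1.07, 0.919, 0.833, 0.618 and 0.767 CPM at 2 months and 0.582, 0.215, 0.793, 0.896 and 0.468 CPM at 9 months. It had 0.33, 0.63, 0.57, 0.417 and 0.33 CPM at 15 months and 1.03, 0.856, 0.758, 1.17 and 1.59 CPM at 24 months. All 24 month libraries lay above all 15 month libraries (1.22, SE 0.275, adjusted p = 0.00179), on 485 counts in 25 libraries; DESeq2 gave no adjusted p for it.

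Tekt1, the other tektin, had 2.58, 3.42, 3.34, 2.12 and 2.82 CPM at 24 months against 2.83, 2.3, 2.43, 3.31 and 1.99 CPM at 2 months and overlapped (0.16, SE 0.131, adjusted p = 0.408). Tekt1 had 2.87, 2.66, 2.61, 2.5 and 2.72 CPM at 9 months and 2.75, 2.75, 2.49, 2.5 and 2.83 CPM at 15 months. Enkur, an inner protein of the doublet, had 3.1, 4.2, 3.17, 3.12 and 3.39 CPM at 24 months against 2.83, 3.01, 2.72, 3.54 and 2.91 CPM at 2 months (0.18, SE 0.117, adjusted p = 0.278). Enkur had 2.8, 3.52, 2.57, 3.49 and 2.67 CPM at 9 months and 3.3, 3.23, 3.1, 3.67 and 3.35 CPM at 15 months. Neither gene passed the test. Ccdc39, which with Ccdc40 forms the ruler that spaces dyneins and spokes, had 28.9, 29.1, 27.7, 28.5 and 26.2 CPM at 2 months and 24.7, 25.4, 25.8, 27 and 26 CPM at 9 months. It had 29.8, 28.7, 29, 29.4 and 28.2 CPM at 15 months and 25.8, 29.4, 26.2, 26.6 and 25.1 CPM at 24 months. Small steps passed for Ccdc39, up at 15 against 9 months (0.17, SE 0.0434, adjusted p = 0.0101) and down at 24 against 15 (-0.13, SE 0.0429, adjusted p = 0.0311), and both were lost after GC correction (adjusted p of 0.101 and 0.669). Ccdc40 (0.16) and Cfap52 (-0.15), an inner doublet protein, did not pass at 24 against 2 months.

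The steps between the younger ages moved few members. At 9 against 2 months 2 members were higher (Spag6 and Dnah5) and 1 lower (Rsph9), where 8.42% of all genes were called higher and 6.34% lower; the median of the members was -0.01. With scaling by total counts 2 were higher and 2 lower. At 15 against 2 months 4 were higher (Spag6, Cfap46, Dnah5 and Dnah9), against 6.02% of all genes higher and 6.58% lower, and the median was 0.092. With scaling by total counts 2 were higher and 1 lower. That count was 1 without replicate 1, 3 or 5 of 2 months and 2 without replicate 1 or 3 of 15 months. At 15 against 9 months 3 were higher (Cfap54, Dnah9 and Ccdc39), against 3.87% of all genes higher and 6.81% lower. It was 1 without replicate 1 of 9 months or replicate 3 or 4 of 15 months, and 1 after GC correction (2.37% of all genes higher) or with choroid level as a covariate.

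At 24 against 15 months 6 members were higher (Foxj1, Tekt4, Spag6, Rsph1, Cfap70 and Dnah1) and 1 lower (Ccdc39), where 10.8% of all genes were called higher and 13% lower. The median of the members was 0.13, with 30 of 35 above 0. In 3 members, Foxj1, Cfap70 and Tekt4, the libraries did not overlap, against 7.4% of all genes that were higher without overlap. With scaling by total counts 8 were higher and none lower in edgeR (2 lower at an unadjusted p under 0.05). After GC correction 2 passed, Tekt4 and Cfap70, against 4.52% of all genes higher and 8.6% lower. The 15 month libraries had GC gaps of -0.25 to -0.09 and the 24 month libraries 0.05 to 0.15, a difference that the corrected fit removes. The count was 2 without replicate 1 of 15 months, 3 without replicate 2 and 4 without replicate 3 of that age, 4 without replicate 2 of 24 months and 3 without replicate 3 of 24 months.

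As a line in months from 2 to 24, 6 members rose (Spag6, Cfap46, Dnali1, Cfap44, Ccdc153 and Spag16), against 7.76% of all genes that rose and 9.02% that fell. The change over the 22 months of the line was 1.14 on the log2 scale for Spag6 (SE 0.139, adjusted p = 2.79e-06), 0.46 for Cfap46 (SE 0.0876, adjusted p = 0.000723) and 0.60 for Dnali1 (SE 0.166, adjusted p = 0.0135). It was 0.23 for Cfap44, 0.49 for Ccdc153 and 0.66 for Spag16, with adjusted p of 0.0237, 0.03 and 0.0459. Those calls were kept in 17, 16 and 8 of 20 fits without 1 library, in the same order. In the fit of all 25 libraries they were lost, as was the call of Cfap46. Members short of the threshold included Hydin (0.33), Dnah9 (0.16), Dnah12 (0.39), Cfap54 (0.17) and Enkur (0.21). The median slope of the members over 22 months was 0.189, against -0.004 for all genes, and 32 of 35 slopes were above 0. Without replicate 5 of 24 months 2 members passed.

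At 30 months the deposited libraries read lower in most members, and 4 of the 5 libraries carried that. Against 24 months, 22 of the 35 members were lower and Foxj1 was higher, where 29% of all genes were called lower and 25.4% higher. The median of the members was -0.466, against 0.004 over all genes. Against 2 months 13 members were lower and 3 were higher (Spag6, Foxj1 and Tmem212), where 29.9% of all genes were called lower and 27.8% higher, with a median of -0.173. The libraries of 30 and 24 months did not overlap in 5 lower members, Pifo, Ak7, Cfap70, Dnah12 and Ccdc39, against 8.68% of all genes. Without replicates 2 to 5, replicate 1 stood alone for 30 months and was assumed to vary like the other ages. Then 1 member passed against 24 months, Dnah11 (0.82, higher, with 1.46% of all genes called higher and 0.871% lower), and 3 against 2 months, all higher, Spag6 (1.46), Cfap46 (0.65) and Dnah11 (1.03), with 3.95% of all genes called higher and 3.57% lower. The medians were -0.041 and 0.109. After GC correction of all libraries 17 members passed against 24 months, all lower (19.6% of all genes called lower), with a median of -0.402, and 10 lower and 2 higher against 2 months (22% of all genes lower and 23.5% higher).

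**Figure D4:**
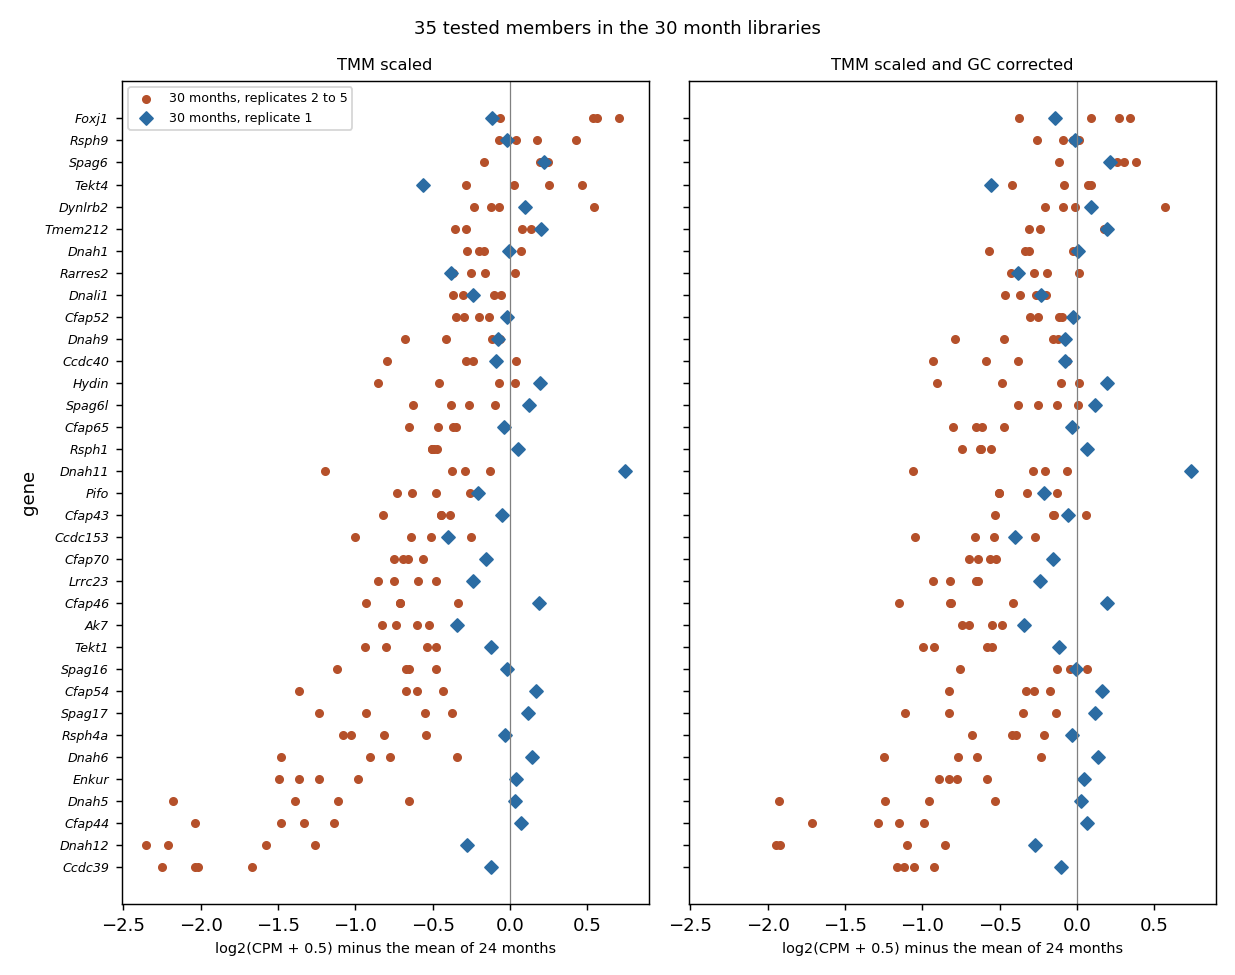
Log2(CPM + 0.5) of each tested member in the 5 libraries of 30 months minus the mean of 24 months, with TMM scaling alone (left) and with GC correction (right); diamonds are replicate 1, circles replicates 2 to 5. Replicate 1 lies near 0 (median -0.022), while the medians of replicates 2 to 5 run from -0.334 to -0.674 on the left and from -0.171 to -0.637 on the right.

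Library by library, replicate 1 of 30 months was below the mean of 24 months in 21 of 35 members, with a median of -0.022 on the log2 scale. Replicates 2, 3, 4 and 5 were below it in 26, 32, 33 and 30 members, with medians of -0.334, -0.51, -0.481 and -0.674. After GC correction those medians were -0.171, -0.466, -0.469 and -0.637. Across the 35 members the log2 fold change of 30 against 24 months went with GC content (Spearman rho 0.67, 0.22 after correction) and little with exon length (-0.18), values that share the same 10 libraries. Foxj1, the member richest in GC (61.4%), had 8.79, 14.1, 9.13, 14.4 and 15.9 CPM at 30 months. Its differences of 0.64 against 2 months (adjusted p = 0.000823) and 0.36 against 24 months (adjusted p = 0.038) came to 0.28 and 0.04 after GC correction (adjusted p of 0.0844 and 0.813), and to 0.14 and -0.14 without replicates 2 to 5 (adjusted p of 0.733 and 0.799). Ccdc39, the poorest in GC (39.9%), had 24.3, 8.03, 6.11, 6.19 and 5.2 CPM at 30 months and was lower than at 2 months in every library, like 13.2% of all genes (-1.49, SE 0.25, adjusted p = 3.67e-05; -0.81 after GC correction, adjusted p = 2.31e-05). Without replicates 2 to 5 its difference was -0.21 (adjusted p = 0.102).

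Several dyneins and doublet genes showed the same split of libraries. Dnah12 had 2.63, 1.09, 0.774, 0.321 and 0.243 CPM at 30 months and was lower than at 2 months (-1.34, SE 0.359, adjusted p = 0.00275), against 0.02 without replicates 2 to 5. Its values in replicates 4 and 5 rest on 7 and 5 counts, where 3 counts amount to 0.138 and 0.146 CPM. Dnah5 had 10.8, 6.52, 4.6, 3.71 and 1.94 CPM (-0.86, SE 0.229, adjusted p = 0.00252), against 0.10 without those 4 libraries. Cfap44 had 11.3, 4.58, 3.52, 3.94 and 2.23 CPM (-0.85, SE 0.233, adjusted p = 0.00328), against 0.28 without them. In each of these genes replicate 1 sat within the range of the younger ages and the other four sat below it. Enkur had 3.48, 1.46, 1.01, 1.15 and 0.874 CPM (-0.90, adjusted p = 0.00261), Tekt1 had 2.55, 1.79, 1.24, 1.88 and 1.41 CPM (-0.53, adjusted p = 0.00832) and Cfap43 had 4.25, 3.26, 2.28, 3.12 and 3.11 CPM (-0.52, adjusted p = 0.00233), again with replicate 1 highest. Without replicates 2 to 5 these differences were 0.22 in Enkur, -0.0069 in Tekt1 and -0.11 in Cfap43 (adjusted p of 0.567, 0.991 and 0.809), and GC correction also ended the call of Cfap43 (-0.21, adjusted p = 0.187). Cfap46 had 12.9, 8.83, 6.69, 6.69 and 5.68 CPM, Spag16 had 1.36, 0.85, 0.697, 0.367 and 0.68 CPM and Dnali1 had 2, 1.89, 1.78, 2.25 and 2.33 CPM, and in Dnali1 replicate 1 lay among the others. Hydin had 6.33, 5.62, 5.19, 3.85 and 2.82 CPM, Cfap65 had 11.5, 9.02, 7.31, 8.39 and 9.18 CPM, Cfap70 had 2.42, 1.7, 1.43, 1.51 and 1.55 CPM and Cfap54 had 14.1, 9.16, 7.7, 8.12 and 4.56 CPM. Replicate 1 was the highest library of that age in 24 of the 35 members.

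Spag6 did not follow that split. Spag6 at 30 months was close to replicate 1 in replicates 3, 4 and 5, and its difference from 2 months was 1.39 with all libraries (SE 0.139, adjusted p = 1.4e-07), 1.46 after GC correction and 1.46 without replicates 2 to 5 (adjusted p = 2.07e-05). Tmem212 had 2, 1.89, 1.2, 1.28 and 1.8 CPM, Ccdc153 had 2.25, 2.55, 2.05, 1.83 and 1.31 CPM, Lrrc23 had 3.4, 2.55, 2.05, 2.25 and 2.82 CPM and Dnah9 had 10.3, 10.1, 10.4, 8.07 and 6.65 CPM at 30 months. Tmem212 was higher than at 2 months (0.50, adjusted p = 0.0483), and also after GC correction (0.56, adjusted p = 0.0317). That call was lost with no filter on low counts, in limma-voom and with choroid level as a covariate. It was kept in 11 of 25 fits that left out 1 library. It was also lost without replicates 2 to 5, where the difference was 0.79. Dnah11, an outer arm heavy chain, had 5.69, 2.88, 2.36, 2.52 and 1.12 CPM, so that its 1 high library made the calls named for replicate 1 alone.

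Several members share genome positions with genes on the other strand, and no source used here says whether counting used strand. Ccdc39 overlaps Ttc14, a tetratricopeptide repeat gene with 89558 counts in 25 libraries against 14127 for Ccdc39. Ttc14 moved alongside it, with 156 CPM in replicate 1 and 39.2 to 49.7 CPM in replicates 2 to 5 of 30 months, and a log2 fold change of -1.38 against 2 months (SE 0.236, adjusted p = 4.32e-05). It also followed Ccdc39 at 15 against 9 months (0.15, adjusted p = 0.0351) and at 24 against 15 months (-0.20, adjusted p = 0.00305). The values of Ccdc39 are uncertain to that extent. Spag17 (488 counts) overlaps Wdr3 (12980 counts). At 30 against 2 months Spag17 differed by -0.94 and Wdr3 by -0.82, and at 30 against 24 months by -0.89 and -0.75. In replicates 2 and 5 of 30 months Spag17 had only 5 and 2 counts. Rarres2 overlaps Lrrc61, which was higher at 24 than at 2 months (0.18, adjusted p = 0.021), where Rarres2 differed by 0.16. Dnali1 overlaps Gnl2 (34274 counts), which differed by -0.03 at 24 against 2 months (adjusted p = 0.527) and by -0.84 at 30 against 2 months. Rsph9 overlaps Mrps18a, Cfap43 overlaps Gsto1 and Gsto2, and Dnah11 overlaps Cdca7l.

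Other genes of the same structures were read in the comparison of 24 with 2 months, where 10.2% of all genes were called higher and 12.3% lower. Of 69 further axonemal structure genes tested, 6 passed, all higher, with a median of 0.135. They included Tppp3, a tubulin binding protein (0.45, SE 0.0648, adjusted p = 2.31e-05), Spef2, a central pair protein (0.58, adjusted p = 0.000193), and Odf3b (0.70, adjusted p = 0.00159). Of 13 other axonemal dyneins 1 was higher, the intermediate chain Dnaic2 (0.62, SE 0.137, adjusted p = 0.00151), and 1 lower, the light chain Dnal1 (-0.11, adjusted p = 0.00357). Of 15 assembly and docking factors 1 passed, the docking gene Ccdc114 (0.37, adjusted p = 0.00498). Among 15 genes of ciliary transcription and multiciliogenesis the X-box factor Rfx3 was lower (-0.17, SE 0.0391, adjusted p = 0.00186), and it alone passed. Of 39 genes of intraflagellar transport and the BBSome 1 was higher (the kinesin Kif17, 0.21) and 6 lower, with a median of -0.009. Of 16 genes of neuronal primary cilia 3 passed, all lower, with a median of -0.045. At 30 against 24 months the transport list had 25 genes lower and 3 higher of 39 (29% of all genes lower and 25.4% higher), and 2, both lower, without replicates 2 to 5 (0.871% of all genes lower).

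Neighbouring cell types were read in the same comparison, against the same shares of 10.2% of all genes higher and 12.3% lower. Of 23 further genes listed as ependymal 5 were higher and 3 lower, with S100b (0.35) and Nkx6-2 (0.50) up, Prom1 (-0.62) down and a median of 0.002. This list summed to 1654 to 1795 CPM at 24 months, against 202.5 to 234.9 CPM for the members. How much of its RNA came from ependymal cells and how much from other cells was not tested. Of 11 tanycyte genes 1 was higher and 4 lower, with sums of 319.9 to 352.3 CPM at 24 months against 363.5 to 395.7 CPM at 2 months. Of 16 genes of ventricular stem cells and neuroblasts 8 passed, all lower (Dcx, -0.45; Top2a, -1.65; Sox4, -0.50), with a median of -0.261. Of 15 leptomeningeal genes 4 passed, all lower, and of 12 endothelial genes 3, all lower. Astrocyte markers had 5 of 12 higher, with Gfap at 0.82, and microglial markers 8 of 12 higher and 1 lower, with C1qa at 0.60. Oligodendrocyte markers had 2 of 12 higher and 3 lower, and neuronal markers 1 of 12 higher and 2 lower. A list of 12 liver transcripts had 2 higher (Mup20, 2.82; Cyp2e1, 2.01) and summed to 57.9 to 263.7 CPM at 24 months against 1.63 to 194.6 CPM at 2 months, with Alb at 0 in 1 library of 2 months. The part of these cell types in the member results was not tested, apart from the choroid covariate.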

How the data were processed

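Whole RNA of 25 brain hemispheres was sequenced with a TruSeq kit, per the labels' protocols. The authors deposited raw read counts per gene, made with CASAVA 1.7, STAR 2.4.1d and featureCounts 1.4.6-p4 on GRCm38, per the submitters' processing notes. Annotation release and strand setting are not given in the sources used here. RPKM values were not used.

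Of 47729 genes, 17799 passed edgeR's filterByExpr and were scaled by TMM. Comparisons among 2 to 24 months used the 20 libraries of those ages in 1 edgeR quasi-likelihood fit, so that they share 1 estimate of the spread, and those with 30 months used all 25. The trend takes age in months as a number. P-values are two-sided, Benjamini-Hochberg adjusted over all genes tested, with a threshold of 0.05. Standard errors are of the log2 fold change. GC correction subtracts a lowess fit (span 0.3) of each library's log2 deviation on exon GC content, fitted on genes with a mean of at least 5 CPM. Alternatives were other scalings, no filter, DESeq2, limma-voom, a choroid covariate, GC correction, other sets of libraries and each library left out. The edgeR fits were tested on counts simulated from the means of the younger libraries with a fixed spread. That simulation held no GC shift, so it does not cover the state of the 30 month libraries. Coordinates are from GENCODE and promoters from RefSeq, both GRCm38. Tools were R 4.3.3, edgeR 4.0.16, limma 3.58.1 and DESeq2 1.42.0.

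The members and the 17 comparison lists were chosen with earlier results of these data known. Values in every library are given for Foxj1, Spag6, Spag6l and the next 10 members by p at 24 against 2 months. They are also given for up to 4 more members each by p in the trend and at 30 against 2 months. For Rsph1, Rsph9, Dnah1, Tekt4 and Dnah11, values at some ages only were added after they were seen. Other lists name up to 3 genes by p. Depth limits precision by counting error, and replicate numbers follow accession order.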

Additional observations from a re-analysis of the deposited data

Results flagged for a closer look

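Of 110 sets of 5 libraries examined, which were 21 members and their mean log2 level at each age, 11 had 1 library far from the other four by Dixon's criterion, where chance marks about 1 in 20. Rsph1, Rsph9, Dnah1, Tekt4 and Dnah11 were not examined in this way. At 30 months replicate 1 stood above the rest in Ccdc39 (24.3 CPM), Cfap44 (11.3 CPM), Cfap70 (2.42 CPM) and Enkur (3.48 CPM), the library whose GC gap was 0.13 against 1.11 to 2.03 in the other four. Spag6 was low in replicate 2 of 30 months (4.11 CPM). Replicate 2 of 24 months was high in Cfap65 (14.9 CPM), Cfap70 (3 CPM) and Enkur (4.2 CPM). Its choroid list stood at 1.225 relative to the geometric mean of all libraries. Replicate 4 of 24 months stood at 1.259 and was flagged in no member, and a link with choroid RNA was not tested. Cfap65 was high in replicate 4 of 15 months (11.9 CPM), Foxj1 was low in replicate 2 of 15 months (6.57 CPM) and Cfap44 was low in replicate 2 of 9 months (8.25 CPM).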

How the results depend on the processing

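No paired analysis was possible because the replicate numbers follow accession order and pair no libraries. In 1 edgeR fit of all 25 libraries, genes past the test were 407 at 9 against 2 months (2626 in the fit of 20), 206 at 15 against 2 (2243), 931 at 24 against 2 (4010), 3 at 15 against 9 (1901), 168 at 24 against 15 (4233) and 962 for the trend (2988). Members past it were 1, 1, 1, 0, 0 and 2 in the same order; for the 0s, 2 and 9 had an unadjusted p under 0.05, and DESeq2 and limma-voom on 20 libraries called 3 and 3, then 6 (with no adjusted p for Tekt4) and 8. GC correction gave 1457 genes at 15 against 2 months, 973 at 15 against 9 (1 member) and 2334 at 24 against 15 (2 members). The choroid covariate gave 1 member at 15 against 9 months, and no filter gave 4 at 24 against 15. Without replicates 2 to 5 of 30 months, 1338 genes and 3 members passed against 2 months (10281 and 16 with them), and 415 and 1 against 24 months (9697 and 23). In that setting log2 fold changes against 2 months turned to 0.15 in Rsph4a, 0.11 in Spag17, 0.29 in Cfap54, 0.089 in Cfap70, 0.095 in Dnah5, 0.017 in Dnah12, 0.28 in Cfap44 and 0.22 in Enkur. Against 24 months they turned to -0.14 in Foxj1, 0.055 in Rsph1, 0.13 in Spag6l, 0.16 in Spag17, 0.19 in Cfap46, 0.17 in Cfap54, 0.030 in Dnah5, 0.15 in Dnah6, 0.068 in Cfap44 and 0.042 in Enkur. In these fits replicate 1 alone stood for 30 months, and the cause of the turns was not tested.

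With each library left out, members past the test ranged from 2 to 4 at 9 against 2 months, 1 to 5 at 15 against 2, 2 to 11 at 24 against 2, 1 to 4 at 15 against 9, 2 to 8 at 24 against 15, 11 to 21 at 30 against 2, 17 to 24 at 30 against 24 and 2 to 9 for the trend. All genes ranged from 2068 to 2700, 1352 to 2351, 3171 to 4112, 1188 to 2052, 3140 to 4424, 9065 to 11580, 8492 to 11287 and 2099 to 3150 in the same order. The lowest counts at 15 against 2 and 15 against 9 months came without replicate 1 of 15 months and replicate 3 of 9 months. At 24 against 2 months Tekt4, Spag16 and Spag17, with 485, 613 and 488 counts in 25 libraries, had standard errors of 0.252, 0.239 and 0.231.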
